A study of Mus musculus with 7 samples.

Results

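Potassium channel genes were followed through the conversion of mouse fibroblasts into neural stem cells. The members are the protein-coding mouse genes whose symbol begins with Kcn and goes on with a family letter code and a number, 93 of the 21474 protein-coding genes measured. They comprise 77 genes for pore-forming subunits and 16 for auxiliary subunits, and 50 of them (40 pore-forming, 10 auxiliary) stood at 2 RPKM (reads per kilobase, divided by the depth of the library) or more in at least 1 library. That is 53.8% of the members, beside 71.4% of all protein-coding genes. At the threshold, Kcnj4 at 2.31 RPKM and Kcnip4 at 2.50 lay just inside, and Kcnf1 at 1.87 and Kcnt1 at 1.73 just outside. Of the 43 members below it, 10 reached 1 RPKM in some library and 33 did not.

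Potassium channels let potassium ions leave or enter a cell along their gradient and so set the resting membrane potential and the shape of electrical signals. Voltage-gated (Kv), calcium-activated, inward-rectifier (Kir) and two-pore channels are built from pore-forming subunits, and auxiliary subunits change how these reach the membrane and how they open and close. In the brain, Kir channels of glia are known for buffering extracellular potassium, whereas the fast Kv families are best known from neurons.

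The study measured RNA before, during and after conversion with the reprogramming factors Oct4, Sox2, Klf4 and Myc (OSKM), with 1 library for each of 7 populations, so no value has a replicate error and no difference has a test. Mouse embryonic fibroblasts (MEF) and induced pluripotent stem cells (iPSC) carried the strain label A12 (Mbd3 flox/-), in which 1 allele of the chromatin gene Mbd3 is lost and the other can be deleted. The day 6 cells and both converted neural stem cell (NSC) lines were of B6/129 background, from a Rosa26-TdTomato B6 mother and a Col1a-OSKM 129 father. For day 6, fibroblasts with a Nanog-CreER reporter received doxycycline (Dox), which drives the OSKM transgene, and 4-hydroxytamoxifen (4OHT), which activates the Cre, from day 1 to day 6, and tdTomato-positive cells were sorted without feeder cells. A Tomato label thus marks cells, and their descendants, in which the Nanog promoter drove Cre while 4OHT was present. The Tomato-positive and Tomato-negative NSC lines were subcloned mechanically and kept without feeders, and the labels do not say how many clones or animals each library pools. The primary brain NSC came from BDF2 embryos (the labels disagree on the embryonic day) and grew with bFGF and EGF. Embryonic stem cells (ESC), line v6.5, were grown on MEF feeders. The iPSC label mentions feeders with question marks. Strain differs between most populations and cannot be told apart from them, and the MEF library is of another strain than the day 6 cells and the converted lines.

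The sequencing depth, inferred from the step size of low values, was 19 megareads (M) in Tomato-positive NSC, 27 M in brain NSC and 41 to 58 M in the other libraries. Markers of the labelled types were present: 6 neural stem cell genes summed to between 5015 and 10472 RPKM in the 3 NSC libraries and to at most 260 elsewhere, and 6 pluripotency genes to 7023 in iPSC and 9452 in ESC. Of the neural sums, Fabp7 alone gave 6511 RPKM in Tomato-positive, 8761 in Tomato-negative and 2394 in brain NSC. Sox2, of the same list, was highest in iPSC at 252 RPKM, beside 116, 120 and 201 in these 3 libraries. Other types were present too. The MEF library held 2996 RPKM over 6 myeloid genes (9.25 to 166 elsewhere) and 425 over 6 muscle genes (2.64 to 28.0 elsewhere). The 6 fibroblast genes, at 26462 RPKM in MEF, summed to 2892 in ESC, 1439 in Tomato-positive NSC, 90.5 in Tomato-negative NSC, 82.6 on day 6, 70.0 in iPSC and 2.84 in brain NSC. The 5 epithelial genes summed to 1285 RPKM on day 6 and to 583 or less elsewhere. Of these 5, Cdh1 alone was not highest on day 6, at 275 RPKM there and 391 in ESC. In bulk libraries, fewer cells of a type and less RNA per cell cannot be told apart.

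Potassium channel genes were most numerous and most abundant in brain and Tomato-negative NSC, and fewest on day 6. Members at 2 RPKM or more numbered 27 in both brain and Tomato-negative NSC, 22 in Tomato-positive NSC, 23 in MEF, 15 in ESC, 11 in iPSC and 9 on day 6. The same share over all protein-coding genes moved much less, from 52.9% on day 6 to 59.0% in MEF, with 57.5% and 55.7% in the Tomato-positive and Tomato-negative lines, 53.9% in brain NSC, 58.1% in ESC and 55.4% in iPSC. Summed over the 93 members, the level was 765 RPKM in brain, 572 in Tomato-negative and 240 in Tomato-positive NSC, 182 in MEF, 127 in ESC, 106 in iPSC and 104 on day 6. Brain NSC owed 294 RPKM of this to the single auxiliary gene Kcnip3. On day 6, 39.9 of the 104 RPKM came from Kcnj13 and 5.78 from Kcnj6, both of which carry a measurement limit given below, and 58.4 RPKM remained without them.

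**Figure D1:**
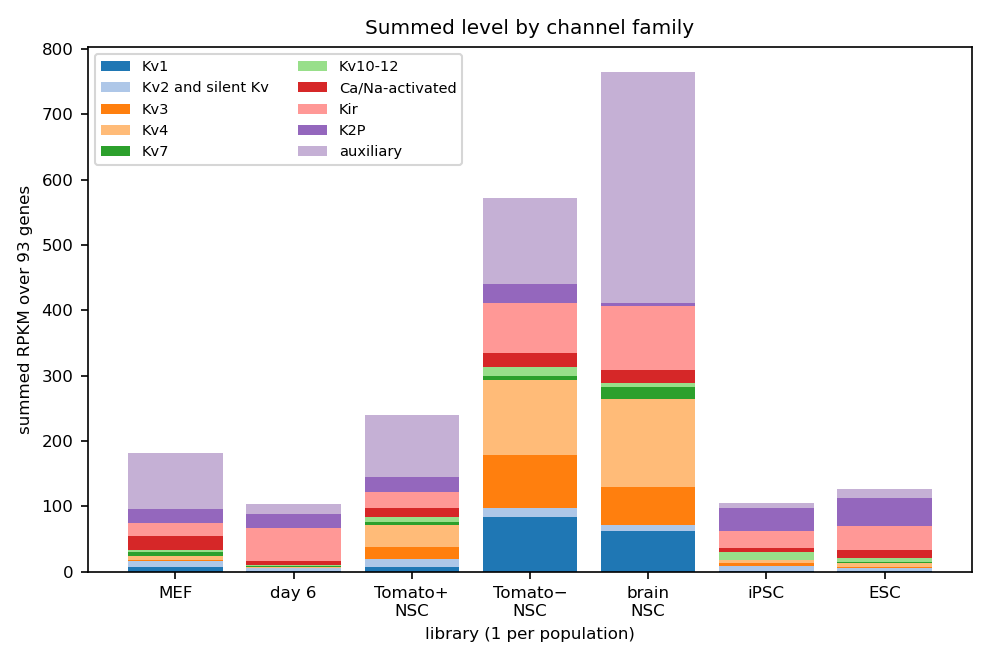
Stacked bars of the summed level (RPKM, from 0) of the 93 potassium channel genes in each of 7 libraries, split into 9 groups of pore-forming subunits and the auxiliary subunits. The bars of Tomato-negative NSC (572 RPKM) and brain NSC (765 RPKM) are the tallest, and the Kv1, Kv3, Kv4 and Kir segments are wide there.

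Of the 50 members at 2 RPKM or more, 29 (58%) had their highest level in an NSC library, beside 40.4% of protein-coding genes at that level. Brain NSC held the highest level of 15 members (16.6% of protein-coding genes peaked there), Tomato-negative NSC of 12 (9.63%) and Tomato-positive NSC of 2 (14.2%). MEF held 9 (18.8%), day 6 held 4 (11.3%), iPSC 2 (12.7%) and ESC 6 (16.8%). The pluripotent libraries together held 8 members (16%), beside 29.5% of protein-coding genes. Without Kcnj13 and Kcnj6, which carry the limit given below, day 6 held 2 of 48 (Kcnab3 and Kcnk6), and 7 rather than 9 members stood at 2 RPKM or more on day 6. These shares describe 1 library each.

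**Figure D2:**
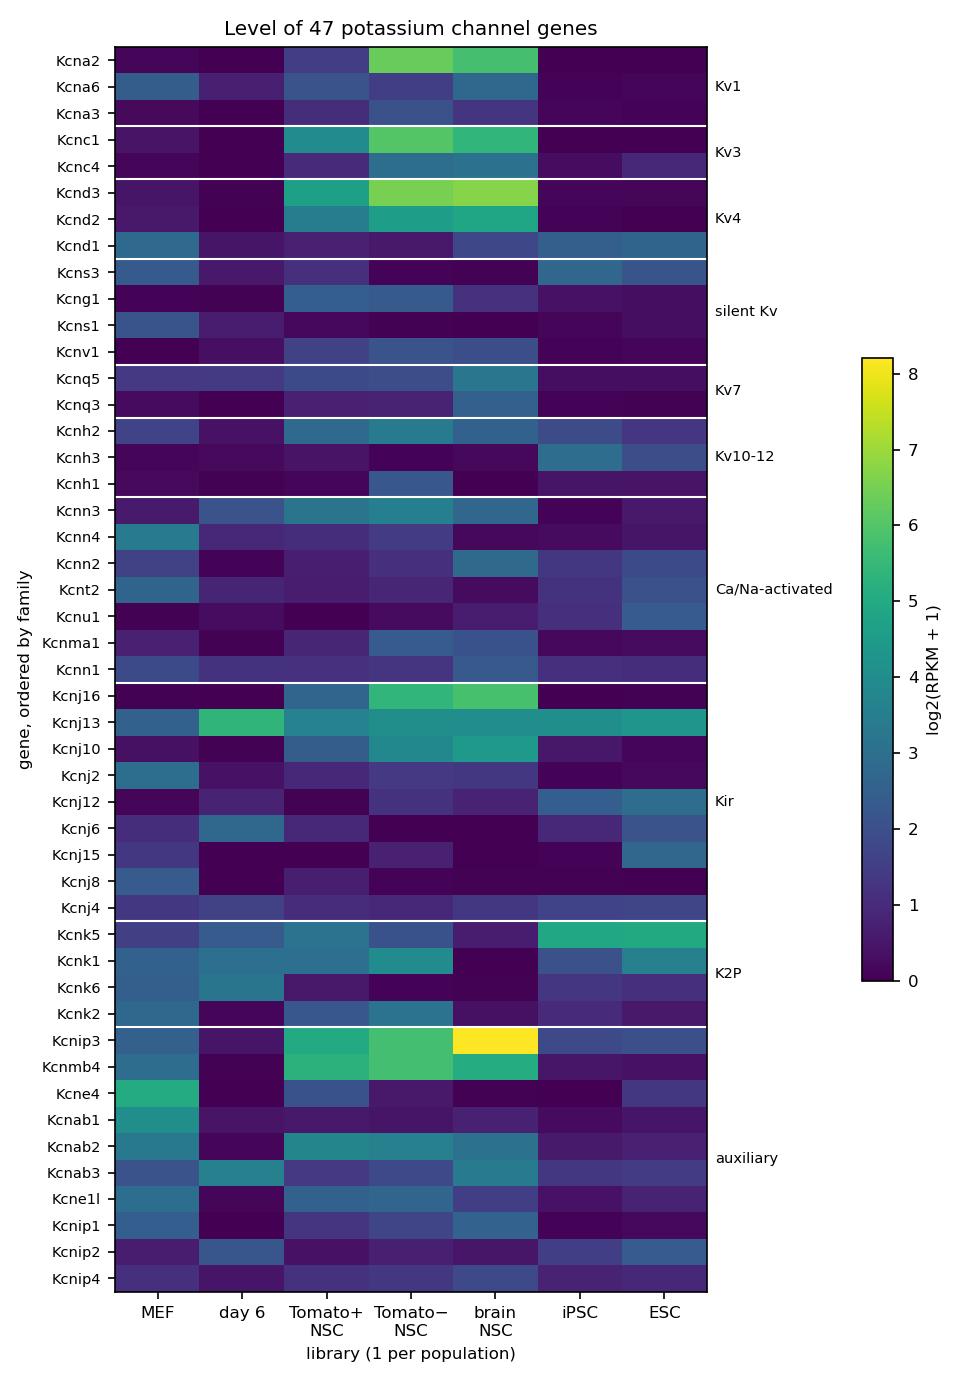
Heat map of the level, as log2(RPKM + 1), of 47 potassium channel genes at 2 RPKM or more in any library (rows, ordered by family and then by highest level) in 7 libraries (columns). The day 6 column is near 0 for most genes, with Kcnj13 at 39.9 RPKM as its brightest cell, while Kcnip3 at 294 RPKM in brain NSC is the brightest overall.

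Kv4 channels carry a fast transient outward current, and their genes Kcnd3 and Kcnd2 were among the members highest in the NSC libraries. Kcnd3 (chromosome 3, 105452330 to 105674002, plus strand, GRCm38) stood at 104 RPKM in brain, 91.9 in Tomato-negative and 24.1 in Tomato-positive NSC, with 0.0822 in ESC, 0.0944 in iPSC, 0.0229 on day 6 and 0.377 in MEF. Kcnd2 (chromosome 6, 21215503 to 21729805, plus strand) stood at 27.4 RPKM in brain, 23.1 in Tomato-negative and 9.79 in Tomato-positive NSC, with 0.0142 in ESC, 0.0535 in iPSC, 0.00844 on day 6 and 0.492 in MEF. For both genes the 3 NSC libraries lay above the other 4 without overlap, with Tomato-positive NSC the lowest of the 3. Both were 4-fold or more higher in every such pair, as were 1.33% of protein-coding genes at 2 RPKM or more. The ratio of brain NSC to MEF was 276 for Kcnd3 (95% Clopper-Pearson interval of the read ratio 232 to 329) and 55.7 for Kcnd2 (46.2 to 67.7). These intervals, as all below, cover counting error only. The remaining Kv4 gene had another pattern. Kcnd1 stood at 5.97 RPKM in MEF and 0.378 on day 6, at 0.677 in Tomato-positive, 0.468 in Tomato-negative and 2.41 in brain NSC, and at 4.60 in iPSC and 5.20 in ESC, so that MEF and the pluripotent libraries held it highest.

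Kv4 pores assemble with calcium-binding KChIP proteins, encoded by the Kcnip genes, and with the peptidase-like proteins Dpp6 and Dpp10. Kcnip3, which encodes a KChIP also known as the transcriptional repressor DREAM and the presenilin partner calsenilin, stood at 294 RPKM in brain, 53.0 in Tomato-negative and 31.4 in Tomato-positive NSC, with 2.99 in ESC, 2.52 in iPSC, 0.390 on day 6 and 4.77 in MEF. Brain NSC was 5.56 times the next library, and both converted lines were above every non-neural library. Kcnip1 stood at 4.93 RPKM in brain, 2.29 in Tomato-negative and 1.40 in Tomato-positive NSC, with 0.141 in ESC, 0.0624 in iPSC, 0 on day 6 and 4.51 in MEF. It was thus about equally high in MEF and brain NSC. Kcnip2 and Kcnip4 did not pass 4-fold in any comparison, and their highest levels were 4.23 RPKM in ESC and 2.50 in brain NSC. Dpp6, which has no Kcn symbol, stood at 25.9 RPKM in brain, 13.7 in Tomato-negative and 3.79 in Tomato-positive NSC, with 3.32 in ESC, 1.62 in iPSC, 0.426 on day 6 and 0.218 in MEF. Its Tomato-positive level was thus close to that of ESC, and Dpp6 passed 4-fold only for brain NSC against MEF. Dpp10, named after its values were seen, stayed at or below 1.25 RPKM.

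Kv3 channels open at strong depolarization and close fast, and their genes Kcnc1 and Kcnc4 were highest in Tomato-negative or brain NSC. Kcnc1 (chromosome 7, 46396497 to 46438704, plus strand) stood at 14.5 RPKM in Tomato-positive, 63.0 in Tomato-negative and 41.6 in brain NSC, as against 0.00447 in ESC, 0.00948 in iPSC, 0 on day 6 and 0.336 in MEF. Day 6 had 0 reads and Tomato-negative NSC 24923, which was at least 9099-fold higher per depth, taking the limit of 3 reads that a count of 0 allows. Kcnc4 stood at 7.53 RPKM in brain, 6.83 in Tomato-negative and 0.949 in Tomato-positive NSC, with 0.869 in ESC, 0.205 in iPSC, 0 on day 6 and 0.107 in MEF. Kcnc2 peaked at 0.328 RPKM, in Tomato-positive NSC.

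Kv1 channels open near the resting potential and are known for limiting repetitive firing. Kcna2 (chromosome 3, 107101146 to 107115005, plus strand) stood at 1.82 RPKM in Tomato-positive, 77.8 in Tomato-negative and 54.0 in brain NSC, as against 0 in ESC, 0 in iPSC, 0 on day 6 and 0.0853 in MEF. Tomato-negative NSC had 1703 reads, brain NSC 760, Tomato-positive NSC 18 and MEF 2. With the same limit of 3 reads, Tomato-negative NSC was at least 622-fold higher than day 6, 784-fold higher than iPSC and 554-fold higher than ESC. The level of Kcna2 rests on 2 exons of 521 bases in all, neither of them coding, so the coding part of the gene was not measured here. Kcna6, a Kv1 gene measured by 1 exon that shares bases with the antisense gene Gm26673, stood at 5.68 RPKM in brain, 1.90 in Tomato-negative and 3.28 in Tomato-positive NSC, with 0.113 in ESC, 0.0597 in iPSC, 0.640 on day 6 and 4.31 in MEF. Gm26673 was also highest in brain NSC, at 2.82 RPKM, and lowest in iPSC and ESC, at 0.0613 and 0.0506. The library kit does not mark strand, so their reads cannot be told apart. Kcna3 did not pass 4-fold anywhere and peaked at 3.13 RPKM in Tomato-negative NSC.

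**Figure D3:**
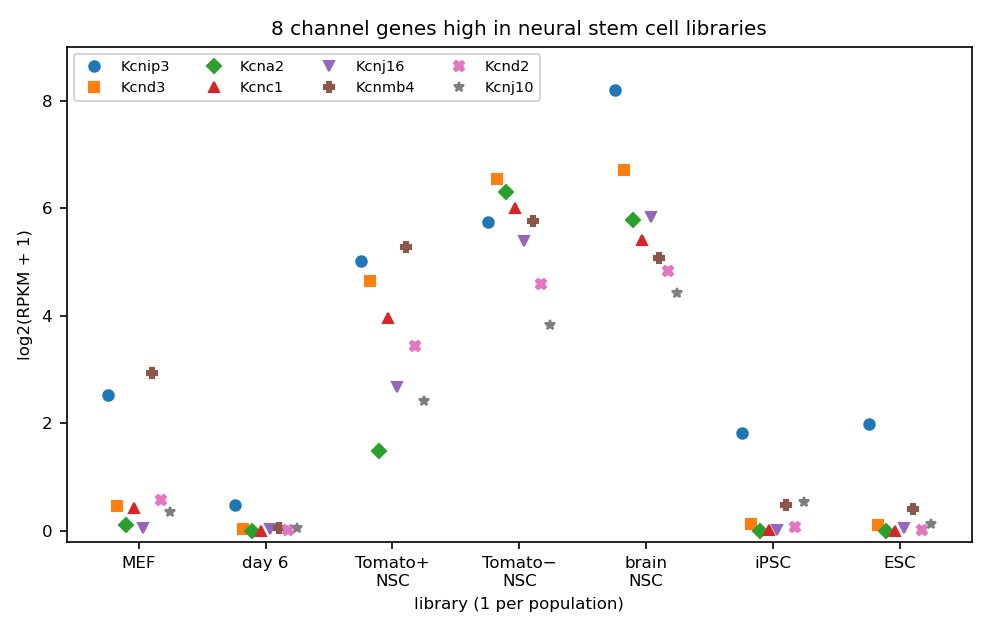
Level as log2(RPKM + 1) of 8 potassium channel genes (1 symbol each) in 7 libraries. The 8 genes were picked for high levels in brain and Tomato-negative NSC, so their order is a description and no test. For each gene the symbols of the 3 NSC libraries lie above those of the other 4, and Kcna2 is the lowest of the 8 in Tomato-positive NSC at 1.82 RPKM.

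Kir4 and Kir5 subunits form the glial inward rectifier. Their genes Kcnj10 and Kcnj16 were highest in brain NSC, followed by Tomato-negative NSC, and were lowest of the 3 NSC libraries in Tomato-positive NSC. Kcnj16 (chromosome 11, 110968033 to 111027968, plus strand) stood at 56.0 RPKM in brain, 41.2 in Tomato-negative and 5.43 in Tomato-positive NSC, with 0.0355 in ESC, 0.0146 in iPSC, 0.0211 on day 6 and 0.0324 in MEF. Its ratio of brain NSC to MEF was 1729.6 (717 to 4255), from 5619 and 6 reads. Kcnj10 (chromosome 1, 172341210 to 172374085, plus strand) stood at 20.4 RPKM in brain, 13.3 in Tomato-negative and 4.33 in Tomato-positive NSC, with 0.0992 in ESC, 0.453 in iPSC, 0.0362 on day 6 and 0.279 in MEF. Its ratio of brain NSC to MEF was 73.1 (57.5 to 94.3). The 6 astrocyte markers summed to 788 RPKM in brain NSC, 468 in Tomato-negative NSC and 433 in Tomato-positive NSC, against 54.4 to 170 in the other libraries. Aldoc (563 RPKM) and Slc1a2 (135) made up most of the brain NSC sum. The markers Aldh1l1, Gja1 and Gfap were lower in brain NSC (1.14, 83.6 and 3.26 RPKM) than in MEF (18.4, 104 and 4.05), and Aqp4 stood at 1.802 and 0.547. Their part in the levels of the glial Kir genes was not tested.

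To show the start regions of genes that were high together in brain and Tomato-negative NSC, RefSeq promoter windows (300 bases, 250 before to 50 after the start, GRCm38.p6, gene strand) are given for 5 of them. Capitals mark each match, on either strand, of CAGCTG or CAGATG (E-box letters), ACAAAG (SOX letters) or GGGCGG (GC box letters), and no match overlapped another. The windows lie at chr6:21215096-21215395 (Kcnd2), chr3:105451640-105451939 (Kcnd3), chr1:172340960-172341259 (Kcnj10), chr11:110997237-110997536 (Kcnj16, the one of its 4 windows with most CpG) and chr3:107101317-107101616 (Kcna2), all on the plus strand.
Kcnd2: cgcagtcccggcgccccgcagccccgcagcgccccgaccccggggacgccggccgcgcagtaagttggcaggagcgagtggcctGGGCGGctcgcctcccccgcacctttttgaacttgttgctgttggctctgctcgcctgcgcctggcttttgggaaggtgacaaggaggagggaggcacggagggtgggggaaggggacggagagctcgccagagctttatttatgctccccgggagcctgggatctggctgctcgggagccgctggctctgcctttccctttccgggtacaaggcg
Kcnd3: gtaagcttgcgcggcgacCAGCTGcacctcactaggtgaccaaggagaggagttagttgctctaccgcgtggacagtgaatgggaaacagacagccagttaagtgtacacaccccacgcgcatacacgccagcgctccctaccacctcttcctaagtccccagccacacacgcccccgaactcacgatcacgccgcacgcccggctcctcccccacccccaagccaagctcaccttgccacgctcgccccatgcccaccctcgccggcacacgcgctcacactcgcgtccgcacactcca
Kcnj10: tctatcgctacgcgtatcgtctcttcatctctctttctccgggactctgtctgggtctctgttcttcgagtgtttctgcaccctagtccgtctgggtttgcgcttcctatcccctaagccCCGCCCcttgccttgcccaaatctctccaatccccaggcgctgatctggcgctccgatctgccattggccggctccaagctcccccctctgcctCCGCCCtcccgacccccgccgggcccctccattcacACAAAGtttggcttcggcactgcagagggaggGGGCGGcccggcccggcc
Kcnj16: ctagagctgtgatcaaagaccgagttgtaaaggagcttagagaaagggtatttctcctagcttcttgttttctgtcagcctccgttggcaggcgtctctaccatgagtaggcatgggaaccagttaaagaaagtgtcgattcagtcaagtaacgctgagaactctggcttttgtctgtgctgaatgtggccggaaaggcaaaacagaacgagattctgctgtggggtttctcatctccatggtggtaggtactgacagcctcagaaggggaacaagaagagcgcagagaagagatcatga
Kcna2: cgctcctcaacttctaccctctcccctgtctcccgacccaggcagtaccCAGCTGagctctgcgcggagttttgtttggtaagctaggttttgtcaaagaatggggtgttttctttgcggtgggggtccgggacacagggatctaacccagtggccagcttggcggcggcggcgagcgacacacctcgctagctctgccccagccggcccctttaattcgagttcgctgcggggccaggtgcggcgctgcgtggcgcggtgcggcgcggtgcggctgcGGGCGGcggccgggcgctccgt
CpG dinucleotides numbered 26 in the Kcnd2 window, 25 in Kcnd3, 21 in Kcnj10, 31 in Kcna2 and 8 in Kcnj16, beside a median of 9 over the 93 windows of members and 7 over all 32851 windows. Over the 93 windows that matched 68 of the 93 members, CAGCTG was found in 25.8% (16.3% of all windows), CAGATG in 20.4% (17.2%), ACAAAG in 15.1% (18.7%) and GGGCGG in 48.4% (35.7%). Windows of the same gene were each counted, also where they overlapped, as for Kcnc2, whose windows all held CAGCTG. A match describes letters in the window and not a bound site.

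The other Kir genes differed from the glial pair. Kcnj2, which encodes the strong inward rectifier that holds the resting potential, stood at 6.76 RPKM in MEF and 0.311 on day 6, at 0.938 in Tomato-positive, 1.57 in Tomato-negative and 1.497 in brain NSC, and at 0.0570 in iPSC and 0.130 in ESC. MEF was 4.31 times the next library. Kcnj8, the pore of the ATP-sensitive channel of vessels, stood at 4.10 RPKM in MEF and 0 on day 6, at 0.599 in Tomato-positive, 0.0550 in Tomato-negative and 0.0321 in brain NSC, and at 0.0319 in iPSC and 0 in ESC. Its regulatory partner Abcc9, named after its values were seen, was also highest in MEF, at 2.75 RPKM, and at or below 0.362 in the other libraries. Kcnj12, another strong rectifier, stood at 0.0706 RPKM in MEF and 0.743 on day 6, at 0.0418 in Tomato-positive, 1.28 in Tomato-negative and 0.736 in brain NSC, and at 4.53 in iPSC and 6.69 in ESC, and so was highest in the pluripotent libraries. Kcnj15 stood at 1.5001 RPKM in MEF and 0.0148 on day 6, at 0.0169 in Tomato-positive, 0.669 in Tomato-negative and 0 in brain NSC, and at 0.0628 in iPSC and 5.55 in ESC. Of the Kcnj15 signal, 92.1% lay in exons that share bases with another gene. Kcnj4 ranged from 0.931 to 2.31 RPKM in all 7 libraries.

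Kcnj13 and Kcnj6, highest on day 6, rest on values that cannot be read as usual. Kcnj13 (chromosome 1, 87386363 to 87394729, minus strand) stood at 4.79 RPKM in MEF and 39.9 on day 6, at 11.4 in Tomato-positive, 15.5 in Tomato-negative and 15.4 in brain NSC, and at 15.9 in iPSC and 18.8 in ESC. It lies within Gigyf2 on the opposite strand, which was itself lowest in MEF at 32.4 RPKM and highest on day 6 at 87.6. The 5 Kcnj13 exons, between 37 and 676 bases long, held between 548 and 569 reads each on day 6, so that reads did not grow with exon length. Only 3 of these exons can be counted without overlap among them. Of 38 members with at least 3 exons of whole read counts, Kcnj13 was the only 1 whose reads per exon stayed within 1.5-fold of each other. Near-equal counts within part of a gene, as in Kcnmb4 below, are not found by this rule. The part of Gigyf2 reads in these values was not tested, and without strand the reads of the pair cannot be told apart. Kcnj6 was listed at 1.11 RPKM in MEF and 5.78 on day 6, at 0.888 in Tomato-positive, 0.00627 in Tomato-negative and 0 in brain NSC, and at 0.881 in iPSC and 3.25 in ESC. Of this signal 99.6% lay in 1 exon whose values give whole reads only at a length far below the annotated one. With the length read from the values, the highest level of Kcnj6 was 0.0496 RPKM on day 6, so it would not have reached 2 RPKM.

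**Figure D4:**
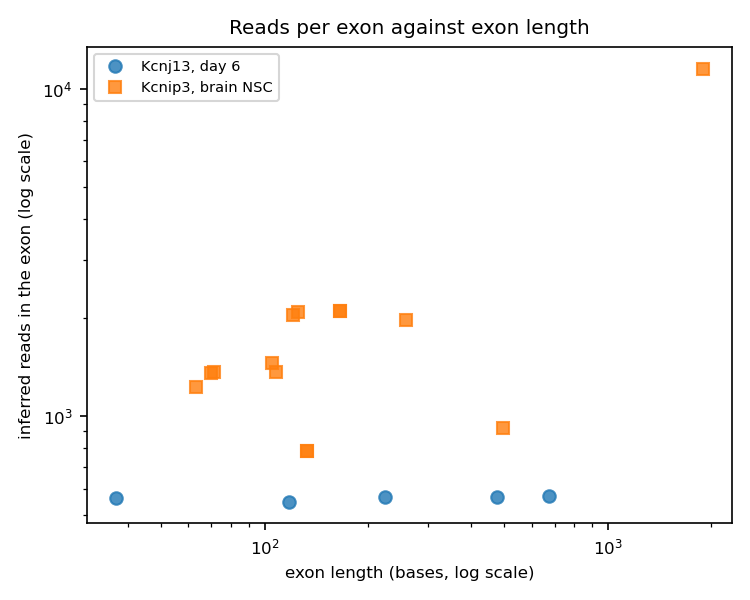
Inferred reads per exon against exon length, both on log scales, for the 5 exons of Kcnj13 on day 6 (circles) and the 14 exons of Kcnip3 in brain NSC (squares). The circles lie between 548 and 569 reads at all lengths, whereas the longest Kcnip3 exon holds 11526 reads and the fewest in any of its exons is 784. The other Kcnip3 exons, of 63 to 495 bases, hold 784 to 2089 reads without steady growth with length, so the contrast rests on the longest exon.

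Two-pore channels carry the background leak of potassium and, as a family, were lowest in brain NSC, at a sum of 3.97 RPKM against 21.1 to 43.7 in the other libraries. Kcnk5, an acid-sensitive leak channel, stood at 1.91 RPKM in MEF and 4.09 on day 6, at 7.74 in Tomato-positive, 3.23 in Tomato-negative and 0.527 in brain NSC, and at 28.8 in iPSC and 30.5 in ESC. The pluripotent libraries lay above all others, and the ratio to MEF was 15.1 (13.4 to 17.0) in iPSC and 15.9 (14.1 to 18.0) in ESC. Kcnk1 stood at 6.99 RPKM in Tomato-positive, 14.5 in Tomato-negative and 0 in brain NSC, as against 10.9 in ESC, 3.14 in iPSC, 6.96 on day 6 and 4.86 in MEF. Brain NSC had no read in any of its 3 exons, whereas the other 6 libraries had 300 to 1370 reads, and Tomato-negative NSC was at least 294-fold higher. Of the Kcnk1 signal, 65.6% lay in an exon shared with another gene, and over its other exons brain NSC was at 0 and the other libraries stood between 2.57 and 11.96 RPKM. Of 8 nearby genes, Sipa1l2 (46.6 RPKM), Ntpcr (17.2), Coa6 (14.5), Tarbp1 (12.3) and Slc35f3 (1.03) were present in brain NSC. Pcnx2 was at 0 and Map3k21 at 0.0130 there, but these did not pass 0.422 RPKM in any library. Map10 stood at 0.0104 RPKM in brain NSC and between 0.846 and 7.36 elsewhere, so Kcnk1 was not alone in its low level. Kcnk6 stood at 4.64 RPKM in MEF and 8.16 on day 6, at 0.464 in Tomato-positive, 0.0583 in Tomato-negative and 0.0272 in brain NSC, and at 1.44 in iPSC and 1.17 in ESC. Day 6 and MEF were its highest libraries and the 3 NSC libraries its lowest. Kcnk2, a channel opened by membrane stretch, stood at 3.66 RPKM in Tomato-positive, 7.65 in Tomato-negative and 0.292 in brain NSC, as against 0.474 in ESC, 1.03 in iPSC, 0.109 on day 6 and 5.80 in MEF. The converted lines lay on either side of MEF for Kcnk2, and brain NSC lay below all 3.

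Calcium-activated channels of small conductance link calcium signals to the membrane potential. Kcnn3 stood at 7.87 RPKM in Tomato-positive, 10.7 in Tomato-negative and 5.50 in brain NSC, as against 0.465 in ESC, 0.0538 in iPSC, 3.24 on day 6 and 0.493 in MEF. Kcnn3 was 1 of the 9 members at 2 RPKM or more on day 6, and all 3 NSC libraries lay above that level. Kcnn4, the intermediate-conductance channel known from fibroblasts and blood cells, stood at 9.24 RPKM in MEF and 0.930 on day 6, at 1.09 in Tomato-positive, 1.67 in Tomato-negative and 0.128 in brain NSC, and at 0.178 in iPSC and 0.372 in ESC. MEF was 5.52 times the next library, and MEF was also the library with 2996 RPKM of myeloid markers, whose part in Kcnn4 was not tested. Kcnt2, a sodium-activated channel, stood at 5.28 RPKM in MEF and 0.794 on day 6, at 0.576 in Tomato-positive, 0.827 in Tomato-negative and 0.178 in brain NSC, and at 1.30 in iPSC and 3.08 in ESC. Kcnma1, the large-conductance channel, peaked at 4.16 RPKM in Tomato-negative NSC without passing 4-fold, and Kcnn1, Kcnn2 and Kcnu1 peaked at 3.92, 6.10 and 4.18 RPKM. Of the Kcnn2 signal, 50.8% lay in exons shared with another gene.

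The beta subunit of that large-conductance channel found in brain, Kcnmb4, stood at 37.8 RPKM in Tomato-positive, 53.1 in Tomato-negative and 32.7 in brain NSC, as against 0.332 in ESC, 0.403 in iPSC, 0.0447 on day 6 and 6.63 in MEF. All 3 NSC libraries lay above MEF, and MEF above the rest. Of the Kcnmb4 signal, 58.3% lay in exons shared with another gene, and over the exons not shared the levels were 4.90 RPKM in MEF, 26.8 in Tomato-positive NSC, 39.7 in Tomato-negative NSC and 26.0 in brain NSC. Of the exons not shared, those of 139, 429 and 1389 bases held 517, 516 and 586 reads in Tomato-negative NSC. Reads thus did not grow with length over these, as in Kcnj13. The other exons held 910 to 1847 reads there, and what these counts stand for was not tested.

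Kv7, ether-a-go-go (Kcnh) and silent Kv genes were low in all libraries, and each of the members named here peaked below 10 RPKM. Kcnq3, a subunit of the M-current, stood at 4.77 RPKM in brain, 0.707 in Tomato-negative and 0.695 in Tomato-positive NSC, with 0.0392 in ESC, 0.0601 in iPSC, 0 on day 6 and 0.177 in MEF. Brain NSC was 6.75 times Tomato-negative NSC for Kcnq3. Kcnq5 also peaked in brain NSC, at 8.40 RPKM, without passing 4-fold.

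Kcnh2, the channel of the cardiac rapid delayed rectifier, stood at 5.92 RPKM in Tomato-positive, 9.21 in Tomato-negative and 4.91 in brain NSC, as against 1.49 in ESC, 2.76 in iPSC, 0.318 on day 6 and 2.11 in MEF. Kcnh1 stood at 0.105 RPKM in Tomato-positive, 3.64 in Tomato-negative and 0.00591 in brain NSC, as against 0.350 in ESC, 0.370 in iPSC, 0.0278 on day 6 and 0.154 in MEF. Tomato-negative NSC was 9.82 times the next library for Kcnh1, with 1119 reads against 14 in Tomato-positive NSC and 2 in brain NSC. Kcnh3 was highest in iPSC at 6.58 RPKM and ESC at 2.92, and at or below 0.342 in the other libraries.

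Silent Kv subunits form no channel alone and modify Kv2 channels. Kcng1 stood at 4.51 RPKM in Tomato-positive, 4.02 in Tomato-negative and 1.24 in brain NSC, as against 0.225 in ESC, 0.313 in iPSC, 0.0376 on day 6 and 0.0641 in MEF. Kcns3 stood at 3.98 RPKM in MEF and 0.476 on day 6, at 1.20 in Tomato-positive, 0.0545 in Tomato-negative and 0.0242 in brain NSC, and at 5.60 in iPSC and 3.34 in ESC. Their order was opposite in that Kcng1 was highest in the converted NSC and Kcns3 in MEF and the pluripotent libraries. Kcns1 stood at 3.36 RPKM in MEF and 0.569 on day 6, at 0.136 in Tomato-positive, 0.0439 in Tomato-negative and 0 in brain NSC, and at 0.0890 in iPSC and 0.243 in ESC. Kcnv1 peaked at 3.31 RPKM in Tomato-negative NSC and did not pass 4-fold in any comparison.

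Of the remaining 5 auxiliary genes, 4 were below 0.4 RPKM on day 6 and above 6 RPKM in MEF. Kcne4, a single-pass subunit that inhibits several Kv channels, stood at 31.9 RPKM in MEF and 0 on day 6, at 3.18 in Tomato-positive, 0.479 in Tomato-negative and 0.0298 in brain NSC, and at 0 in iPSC and 1.53 in ESC. MEF had 3508 reads and was at least 1195-fold higher than day 6. From MEF through Tomato-positive and Tomato-negative NSC to brain NSC, Kcne4 had the same order as the summed fibroblast markers. The other libraries did not keep this order. ESC had a higher marker sum than Tomato-positive NSC (2892 against 1439 RPKM) but less Kcne4. Day 6 and iPSC, with Kcne4 at 0, had higher marker sums (82.6 and 70.0 RPKM) than brain NSC (2.84). The part of such cells in the level of Kcne4, or of feeders in ESC, was not tested. Kcnab1, a Kv1 beta subunit, stood at 15.6 RPKM in MEF and 0.341 on day 6, at 0.467 in Tomato-positive, 0.385 in Tomato-negative and 0.690 in brain NSC, and at 0.171 in iPSC and 0.386 in ESC. MEF was 22.6 times the next library.

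Kcne1l, a Kcne subunit gene of the X chromosome, stood at 6.83 RPKM in MEF and 0.0704 on day 6, at 4.84 in Tomato-positive, 5.34 in Tomato-negative and 1.90 in brain NSC, and at 0.313 in iPSC and 0.743 in ESC. Kcnab2, the main beta subunit of brain Kv1 channels, stood at 12.7 RPKM in Tomato-positive, 10.9 in Tomato-negative and 7.31 in brain NSC, as against 0.684 in ESC, 0.500 in iPSC, 0.0780 on day 6 and 9.04 in MEF. Both genes were present in fibroblasts and NSC and low on day 6 and in the pluripotent libraries. Kcnab3 had a different order, at 3.24 RPKM in MEF and 11.0 on day 6, at 1.56 in Tomato-positive, 2.52 in Tomato-negative and 9.16 in brain NSC, and at 1.52 in iPSC and 1.66 in ESC. Of the Kcnab3 signal, 43.4% lay in exons shared with another gene, and over its other exons day 6 stood at 9.93 RPKM and brain NSC at 9.97.

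The comparisons below used log2((a + 1)/(b + 1)) of RPKM and counted a gene at 4-fold or more where it reached 2 RPKM in a compared library. Where several libraries stood on a side, each pair had to pass and the smallest ratio is given. A gene whose pairs differed in direction was given a log2 value of 0. The same count over all protein-coding genes is the background, and 37 of the 50 members (74%) passed in at least 1 of the 9 comparisons, beside 41.0% of protein-coding genes at 2 RPKM or more. These counts depend on the 1 RPKM added to each level. With 4 RPKM added, 12 members (24%) passed in any comparison, beside 25.1%. Several comparisons share a library (MEF, day 6 or the NSC lines), so their counts are not independent.

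Early conversion was compared between sorted day 6 cells and MEF. Of 28 members tested, 13 (46.4%) were lower on day 6, beside a background of 17.3%, and 1 was higher, beside 7.64%. The lower genes were led by Kcne4 (log2 −5.04), Kcnab1 (−3.63) and Kcnab2 (−3.22), and 7 of the 13 were auxiliary (with Kcnip3, Kcnmb4, Kcne1l and Kcnip1). The others were pores and included Kcnn4, Kcnk2, Kcnj2, Kcnd1 and Kcnj8. The 1 higher gene was Kcnj13 (2.82), with the limit given above, and 0 were higher without it. Between MEF and day 6 the summed markers also moved, from 26462 to 82.6 RPKM for fibroblasts, from 2996 to 30.8 for myeloid cells and from 42.7 to 1285 for epithelium, and their part in the channel genes was not tested. With 4 RPKM added to each level in place of 1, 3 of the 28 members (10.7%) passed in either direction, beside 14.9% of all genes. The median log2 ratio was −1.78 over the members tested and −0.18 over all protein-coding genes tested.

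The pluripotent endpoint was compared between MEF and both iPSC and ESC. Of 33 members tested, 10 were lower in both pluripotent libraries (30.3%, background 10.2%) and 2 higher (6.06%, background 6.98%). Kcnk5 (log2 3.36) and Kcnj12 (2.37) were the higher ones. Those lower were Kcne4 (−3.70), Kcnab1 (−3.58), Kcnn4 (−2.90), Kcnj2 (−2.78), Kcnab2 (−2.58), Kcnmb4, Kcnj8, Kcnip1, Kcna6 and Kcne1l. With 4 RPKM added, 3 of the 33 (9.09%) passed in either direction, beside 9.79% of all genes. The median was −0.62 over members and 0 over all genes tested, with genes for which iPSC and ESC lay on either side of MEF set to 0. Both lists of lower genes were measured against the same MEF library.

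Day 6 was then compared with iPSC and ESC. Of 20 members tested, Kcnab3 was higher on day 6 than in both (log2 2.18, background 3.54%) and Kcnk5 (−2.55) and Kcnd1 (−2.02) were lower (background 6.24%). Without the exons that Kcnab3 shares with another gene, it stood at 9.93 RPKM on day 6, 1.38 in iPSC and 1.74 in ESC. With 1 RPKM added, this was just under 4-fold against ESC. Kcnk5 on day 6 was 0.142 of its iPSC level (0.131 to 0.154) and 0.134 of its ESC level (0.123 to 0.146). With median-of-ratios scaling, the same comparison counted 2 higher and 1 lower (background 4.69% and 5.22%), so the split of so few genes depends on the scaling.

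Primary brain NSC were compared with the MEF library, fibroblasts being the kind of cell that conversion starts from. Of 39 members tested, 12 were higher in brain NSC (30.8%, background 7.13%) and 10 lower (25.6%, background 14.5%). The higher genes included Kcnd3 (log2 6.26), Kcnj16 (5.79), Kcnip3 (5.68), Kcna2 (5.66), Kcnc1 (5.00), Kcnd2 (4.25), Kcnj10 (4.07), Kcnc4 (2.95), Kcnq3 (2.29), Kcnmb4 (2.14) and Kcnn3 (2.12). Of the 12, 10 were pores and 2 auxiliary genes. The lower genes were Kcne4 (−5.00), Kcnab1 (−3.30), Kcnn4 (−3.18), Kcnk1 (−2.55), Kcnk6, Kcnt2, Kcnk2, Kcnj8, Kcns3 and Kcns1. The median was 0.93 over members and 0.15 over all genes tested.

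The converted NSC lines were compared with the day 6 cells. Of 33 members tested, 12 were higher in both lines (36.4%, background 9.24%) and Kcnk6 alone was lower (3.03%, background 5.27%). Kcnmb4 (log2 5.21), Kcnd3 (4.62), Kcnip3 (4.54) and Kcnc1 (3.95) led, followed by Kcnab2, Kcnd2, Kcnj16, Kcne1l, Kcnh2, Kcnj10, Kcng1 and Kcnk2. Kcnd3 had 8 reads on day 6 and 3621 and 29874 in the Tomato-positive and Tomato-negative lines. With median-of-ratios scaling the split was 11 higher and 3 lower, beside a background of 6.26% and 7.50% at that scaling. The median was 1.09 over members and 0.22 over all genes tested.

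How near the converted lines came to brain NSC was read from the members that differed in both. Of 35 members tested, Kcnk1 was higher in both lines (log2 2.998, 2.86%, background 2.01%) and 2 were lower (5.71%, background 0.922%), led by Kcnip3 (−2.45). Kcnip3 in the Tomato-positive line was 0.107 of its brain NSC level (0.105 to 0.115) and in the Tomato-negative line 0.180 (0.177 to 0.187). The median was 0 over members and over all genes tested. Genes for which the lines lay on either side of brain NSC were set to 0, so this median does not measure nearness. For Kcnd3 and Kcnd2, Tomato-negative NSC reached 0.882 and 0.843 of the brain NSC level, and Tomato-positive NSC 0.231 and 0.358. Gaps in a single line are not counted here. Tomato-positive NSC reached 0.0337 of the brain NSC level for Kcna2, 0.0970 for Kcnj16 and 0.126 for Kcnc4, but 1.16 for Kcnmb4, 1.21 for Kcnh2, 1.43 for Kcnn3 and 1.74 for Kcnab2. Kcnq3, at 0.146 in the Tomato-positive and 0.148 in the Tomato-negative line, did not pass with 1 RPKM added.

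With 1 RPKM added, members past 4-fold between the 2 converted lines all lay in 1 direction. Of 29 members tested, 5 were lower in the Tomato-positive line (17.2%, background 0.848%) and 0 higher (background 3.09%). Kcna2 (log2 −4.81) led, at 0.0234 of its Tomato-negative level (0.0138 to 0.0370), followed by Kcnj16 (−2.71, ratio 0.132, 0.125 to 0.153), Kcnh1 (−2.07, ratio 0.0289, 0.0151 to 0.0466), Kcnc1 (−2.05, ratio 0.230, 0.222 to 0.241) and Kcnc4 (−2.01). Of the 50 members, 36 (72%) stood lower in Tomato-positive than in Tomato-negative NSC, beside 38.6% of protein-coding genes. With the libraries scaled to equal totals the shares were 80% and 55.5%, and with median-of-ratios scaling 74% and 50.3%. The direction past 4-fold depended on how exons were combined. With the highest exon of each gene, 2 of 44 members were higher in the Tomato-positive line (background 4.71%) and 7 lower (1.44%). The Tomato-positive library had 19 M reads against 42 M, its fibroblast markers summed to 1439 RPKM against 90.5, and its 4 oligodendrocyte progenitor markers to 410 against 761. Of these 4, Olig1 (372 against 730) and Cspg4 (5.47 against 14.8) were lower and Pdgfra (26.7 against 12.48) and Sox10 (5.45 against 4.55) higher in Tomato-positive NSC. The part of these in the differences was not tested, and with 1 library each, the Tomato label cannot be told apart from other differences between the lines.

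The iPSC and ESC libraries differed in 1 of 17 members tested. Kcnj15 was lower in iPSC (log2 −2.62, 5.88%, background 4.33%), at 0.0113 of its ESC level (0.00668 to 0.0170), and 0 members were higher (background 1.18%). Without the exons that Kcnj15 shares with another gene, ESC held it at 3.10 RPKM and iPSC at 0.0336 (log2 −1.99 with 1 RPKM added), just under 4-fold, and 0 members passed.

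All 3 NSC libraries were finally compared with all 4 others. Of 50 members tested, 6 were higher in every pair (12%, background 1.33%), namely Kcnd3 (smallest log2 ratio 4.19), Kcnc1 (3.54), Kcnd2 (2.85), Kcnj16 (2.63), Kcnip3 (2.49) and Kcnmb4 (2.14), and 0 were lower (background 0.346%). Kcna2 did not pass because Tomato-positive NSC held it at 1.82 RPKM, and Kcnj10 because the ratio of Tomato-positive NSC to iPSC was too small.

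**Figure D5:**
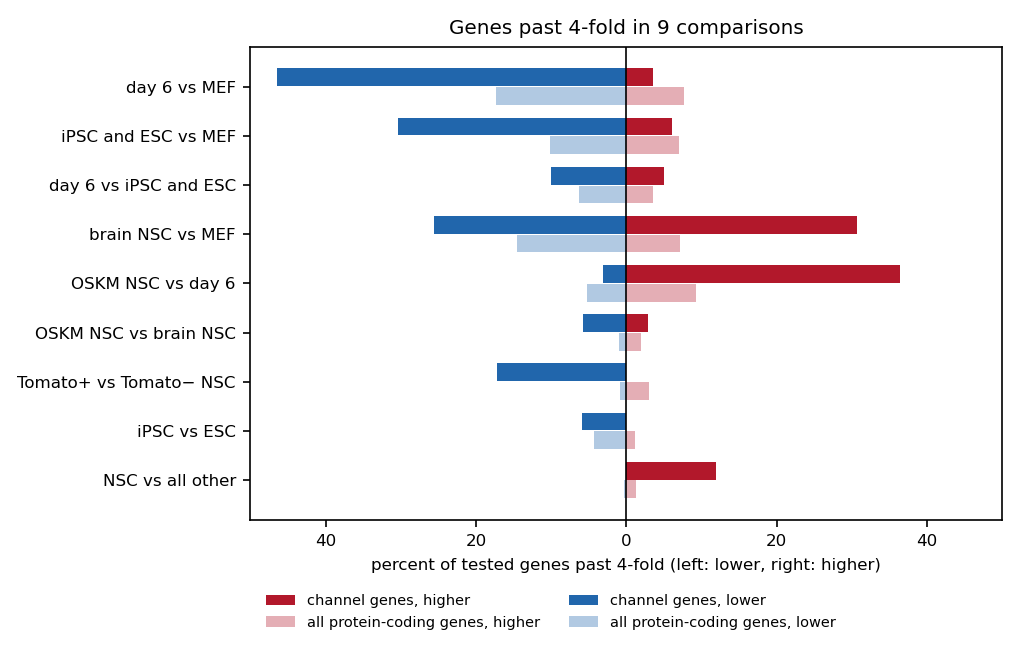
Percent of tested genes past 4-fold in 9 comparisons, lower to the left and higher to the right of 0, for potassium channel genes (dark bars) and all protein-coding genes (pale bars). The dark bars exceed the pale ones most for genes lower on day 6 than in MEF (46.4% against 17.3%) and higher in OSKM NSC than on day 6 (36.4% against 9.24%).

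Of 30 channel partners and potassium transporters without a Kcn symbol, all measured, 19 (63.3%) reached 2 RPKM, beside 71.4% of protein-coding genes, and 6 of these (31.6%) passed 4-fold in a comparison, beside 41.0%. Dlg4, the scaffold PSD-95 that clusters Kv1 and Kir channels, stood at 160 RPKM in brain, 92.4 in Tomato-negative and 62.6 in Tomato-positive NSC, with 4.17 in ESC, 1.10 in iPSC, 1.67 on day 6 and 83.5 in MEF. It shared the low levels on day 6 and in the pluripotent libraries with Kcnab2. Slc12a7, a potassium-chloride cotransporter, stood at 45.9 RPKM in MEF and 38.1 on day 6, at 22.1 in Tomato-positive, 10.6 in Tomato-negative and 0.332 in brain NSC, and at 68.1 in iPSC and 114 in ESC. Like Kcnk1, it was higher in both converted lines than in brain NSC (log2 3.13). Tmem38a, an intracellular potassium-permeable channel, stood at 35.01 RPKM in Tomato-positive, 63.7 in Tomato-negative and 54.6 in brain NSC, as against 28.1 in ESC, 13.1 in iPSC, 6.23 on day 6 and 23.2 in MEF. Its relative Tmem38b was lower on day 6 than in MEF, at 4.57 against 26.9 RPKM.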

How the data were processed

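RNA-seq of 7 mouse libraries was used, and the authors deposited RPKM values per exon. Per the submitters' processing notes, reads were handled with TopHat2 2.0.10 and Bowtie, bedtools and CASAVA 1.8.2 on build mm10, with no role stated for each, and how spliced reads were counted is not given in the sources used here. Exon IDs were matched to GENCODE M21 (GRCm38, the same assembly as mm10): 270168 of 279252 (96.7%) matched. A gene's level was the mean of its exon RPKM weighted by exon length. Reads were inferred from the steps of RPKM times length, whole within 0.01 read for 96.3% to 96.5% of the values tested, and intervals (95% Clopper-Pearson) are printed only where they contain the RPKM ratio. A count of 0 allows up to 3 reads. Comparisons used a pseudocount of 1 RPKM, so ratios of low genes are understated.

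Members at 2 RPKM or more are named, other than a few genes that are not reported here but stay in the counts and sums, with every library's value for those past 4-fold in a comparison or at 10 RPKM or more, and related genes outside the family where they passed 4-fold. Neighbouring or overlapping genes were chosen after their values were seen. The members, lists and tests were chosen with earlier results of these data known. Scripts ran in Python 3.11.15 with pandas 2.3.3 and scipy 1.17.1 and were tested on simulated data. A planned search of member proteins for the selectivity filter was not run, since protein sequences were not used here.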

Additional observations from a re-analysis of the deposited data

How the results depend on the processing

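Each of 13 counts was recomputed under other settings, and 106 of 131 alternative counts stayed within 1.5 times. Removing the floor could not change a count, since a gene below 2 RPKM in every compared library cannot reach 4-fold with 1 RPKM added. The percentages here are shares of all protein-coding genes tested at the same setting, both directions together. With a pseudocount of 0.25 RPKM, members past 4-fold numbered 22 of 28 for day 6 against MEF (beside 30.5% of all genes, and 14 beside 24.9% as reported), 11 of 20 for day 6 against the pluripotent libraries (14.2%, and 3 beside 9.78% as reported), 22 of 33 for OSKM NSC against day 6 (20.2%, and 13 beside 14.5%) and 7 of 35 for OSKM NSC against brain NSC (5.66%, and 3 beside 2.94%). With a pseudocount of 4 RPKM, these 4 counts were 3 (14.9%), 1 (4.79%), 4 (7.56%) and 1 (1.07%). With the same pseudocount, 3 of 33 passed for the pluripotent libraries against MEF (9.79%, and 12 beside 17.2% as reported), 9 of 39 for brain NSC against MEF (13.1%, and 22 beside 21.6%), 2 of 29 for Tomato-positive against Tomato-negative NSC (1.59%, and 5 beside 3.94%), 0 of 17 for iPSC against ESC (2.62%, and 1 beside 5.51%), 3 of 50 for NSC against all others (0.816%, and 6 beside 1.68%) and 12 of 50 in any comparison (25.1%, and 37 beside 41.0%). The members' share was thus below that of all genes for day 6 and the pluripotent libraries against MEF, for iPSC against ESC and over any comparison, and above it for the others. Among the others, it rested on 1 member for day 6 against the pluripotent libraries (5% beside 4.79%). The same held for OSKM NSC against brain NSC (2.86% beside 1.07%). With a floor of 8 RPKM, fewer genes were tested, and 5 of 7 passed for day 6 against MEF (25.8%), 5 of 7 for the pluripotent libraries against MEF (19.02%), 12 of 16 for brain NSC against MEF (21.6%), 3 of 14 for Tomato-positive against Tomato-negative NSC (3.67%), 0 of 3 for iPSC against ESC (5.44%) and 19 of 21 in any comparison (42.0%). With the highest exon of each gene, 23 of 36 passed for day 6 against MEF (30.6%), 9 of 33 for day 6 against the pluripotent libraries (13.01%), 7 of 48 for OSKM NSC against brain NSC (4.62%) and 9 of 44 for Tomato-positive against Tomato-negative NSC (6.14%). Without exons shared with another gene, 0 of 16 passed for iPSC against ESC (5.75%). The cause of these changes was not tested beyond what the settings themselves do. Of 865 alternative values of 79 member ratios, 0 changed direction, 652 stayed at the reported value or within its counting interval and 213 moved beyond it. Another pseudocount cannot change the direction of a ratio. Another floor, or leaving out Kcnj13 and Kcnj6, leaves the other ratios as they were. Part of this result was thus fixed in advance. The settings of the counts over any comparison and of the order of the converted lines, the exon lengths read from the values and the counts without Kcnj13 and Kcnj6 were chosen after seeing the data. Median-of-ratios scaling shifted Tomato-positive NSC by −0.34 and day 6 by 0.30 on the log2 scale. No paired analysis was possible because each group has 1 library. Counting error is widest in Tomato-positive NSC (19 M) and for members with few reads.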

Other observations

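Several members lie close to another member on a chromosome, and neighbours did not always share a pattern. Kcnj16 and Kcnj2, 38.2 kb apart on chromosome 11 on the same strand, had opposite orders of MEF and NSC: Kcnj16 stood at 0.0324 RPKM in MEF and 56.0 in brain NSC, and Kcnj2 at 6.76 and 1.497. Kcna3 and Kcna2, 63.1 kb apart on chromosome 3, were both highest in Tomato-negative NSC, at 3.13 and 77.8 RPKM, while Kcna10, on the other side of Kcna2, peaked at 0.0194 RPKM. Kcnj10, at 20.4 RPKM in brain NSC, has Kcnj9 at a distance of 11.9 kb on the opposite strand, and Kcnj9 was also highest in brain NSC, at 1.44 RPKM. However, 91.7% of the Kcnj9 signal lay in exons shared with another gene. Over its other exons, Kcnj9 stood at 0.207 RPKM in brain NSC and 0.240 in Tomato-positive NSC, so brain NSC was not highest there. Kcna6 and Kcna1, 61.9 kb apart on chromosome 6, differed in brain NSC, where Kcna6 stood at 5.68 RPKM and Kcna1 at 0.00864, and were both present in MEF, at 4.31 and 1.18. Kcnk16, 79.6 kb from Kcnk5, stayed at or below 0.186 RPKM where Kcnk5 reached 30.5. These are levels in single libraries, with no test.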
